A study of Mus musculus with 13 samples.

Results

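Potassium, sodium and calcium channel genes were followed in mouse embryonic stem (ES) cells in which CTCF S224E was induced. They were picked by symbol: the potassium channel genes named Kcn with a family letter and a number, the sodium channel genes Scn, and the calcium channel genes Cacna, Cacna2d, Cacnb and Cacng. Of the 24421 genes in the counts, 131 matched, which are 92 potassium, 13 sodium and 26 calcium channel genes, and pore-forming and accessory subunits are both among them. A further 7 symbols of like spelling did not match, among them Scn2a1, a sodium channel pore gene, and antisense transcripts such as Kcnq1ot1, and these are not described here. RNA came from clone A2 of F1-2.1 ES cells, which carries a doxycycline (dox)-inducible transgene for S224E, a CTCF with glutamic acid in place of a serine to mimic its phosphorylation. The cells were grown on γ-irradiated fibroblast feeders for 6 days, either with dox at 1 μg/mL (+dox, 2 libraries) or without it (−dox, 2 libraries), and the methods call the replicates biological. All 4 libraries carry the transgene and keep their endogenous Ctcf. The comparison rests on a single clone, and because cells given dox with no transgene or with the wild type transgene were not analysed here for RNA, an effect of S224E cannot be told apart from one of dox or of added CTCF.

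Ion channels are membrane proteins that let chosen ions pass down their gradients. Potassium channels hold the resting potential and end electrical signals, sodium channels start fast action potentials, and voltage-gated calcium channels turn a change of voltage into calcium entry. Many voltage-gated pore subunits work with accessory subunits that set their gating and their number at the surface. Most of these genes are known for their work in nerve and muscle. ES cells do not fire action potentials, though potassium and calcium channels are known there too and take part in setting the membrane potential and the volume of dividing cells.

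The counted reads per library ran from 22899107 to 30206085, and 3 reads equal between 0.0982 and 0.133 CPM (counts scaled to a common library size). The channel genes took 0.0664% of the reads in both +dox libraries and 0.0702% to 0.0737% in the −dox libraries, and between 115 and 120 of the 131 had a read in a given library. Ctcf itself, whose count sums the endogenous gene and what of the transgene maps to it, had 327 and 329 CPM with dox and 295 and 304 CPM without, a log2 fold change of 0.13 with an adjusted p-value of 0.475 from edgeR. These counts therefore do not check the labels. As a check of the cell type, all 10 ES cell markers (Pou5f1, Nanog, Sox2 and the like) were above 1 CPM, with a summed level of 6229 and 7052 CPM with dox and 5633 and 6078 CPM without. One library stood apart. The 24 fibroblast markers, all of them with reads, summed to 4994 CPM in +dox replicate 1. The sums were 2964 CPM in +dox replicate 2 and 2395 and 2763 CPM in the −dox libraries. Over the 23 at 1 CPM or more, the median log2 fold change was 1.47 in replicate 1 and still positive, 0.36, in replicate 2. Results are therefore also given without +dox replicate 1, and then the remaining +dox library is assumed to vary like the −dox libraries. In whole cultures, fewer cells of a type and less RNA per cell cannot be told apart.

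The channel genes that passed a test with dox were Kcnj3, Kcnk1 and, by 1 of 2 tests, Cacna1h. The 250 bases before the listed start of each are printed from mm9 (NCBIM37), read 5′ to 3′ along the gene's own strand, to show how unlike these promoter windows are in CG dinucleotides, the sites that DNA methylation acts on. Capitals mark CG dinucleotides.
Kcnj3, chr2:55288131-55288380 (+ strand): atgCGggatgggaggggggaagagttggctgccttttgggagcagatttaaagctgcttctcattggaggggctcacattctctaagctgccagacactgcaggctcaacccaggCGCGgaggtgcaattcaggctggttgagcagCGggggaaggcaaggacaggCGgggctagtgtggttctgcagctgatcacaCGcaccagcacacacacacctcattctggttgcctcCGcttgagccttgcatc
Kcnk1, chr8:128518752-128519001 (+ strand): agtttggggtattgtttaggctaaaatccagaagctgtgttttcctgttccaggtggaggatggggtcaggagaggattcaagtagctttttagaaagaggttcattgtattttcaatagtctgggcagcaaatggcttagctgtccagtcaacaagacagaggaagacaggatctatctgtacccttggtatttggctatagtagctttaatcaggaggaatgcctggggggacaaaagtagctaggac
Cacna1h, chr17:25570729-25570978 (- strand): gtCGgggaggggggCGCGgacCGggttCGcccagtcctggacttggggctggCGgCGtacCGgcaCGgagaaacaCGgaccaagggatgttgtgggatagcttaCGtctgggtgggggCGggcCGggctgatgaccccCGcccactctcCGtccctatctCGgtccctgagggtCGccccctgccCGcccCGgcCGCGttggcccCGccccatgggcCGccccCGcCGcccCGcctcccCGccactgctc
The windows hold 7 CG in Kcnj3, 0 in Kcnk1 and 27 in Cacna1h. In Kcnk1 the CG-rich stretch lies behind the listed start, where the next 250 bases hold 20, against 12 in Kcnj3 and 33 in Cacna1h. The 131 channel genes had a median of 10 CG in the window before the start, and all 24346 genes with a window had a median of 9. Windows with at least 10 CG were found in 63.9% of the channel genes that averaged 1 CPM or more and in 41.4% of those below, and in 74.1% and 14.8% of all genes above and below that level. The core CTCF motif, searched on both strands, matched the window of 1 of the 131 channel genes (0.763%), the sodium channel pore gene Scn3a, and 0.53% of all windows. Only a fixed consensus pattern was searched, in these 250 bases alone, so CTCF sites elsewhere in or near the genes were not counted.

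Which channel genes do these cultures transcribe? A mean of at least 1 CPM was reached by 61 of the 131, or 46.6%, against 57.0% of all genes. These were 39 potassium, 5 sodium and 17 calcium channel genes, and 20 of the 61 reached a mean of 10 CPM. The calcium channel pores were the group most often above 1 CPM, with 8 of 10, and the tandem pore (K2P) potassium channels the least often, with 4 of 14. Per length, the highest level belonged to Kcnk5, an acid- and volume-sensitive background potassium channel, at 27.7 CPM per kb of listed length. Cacng7, a gamma subunit that also guides AMPA-type glutamate receptors, followed at 18.7. Below these stood Cacnb3, a cytoplasmic beta subunit of calcium channels, at 11.6, Kcnk1 at 10.6 and the P/Q-type calcium pore Cacna1a at 8.24. Kcnk5 was above Cacng7, and Cacng7 above Cacnb3, in every library, whereas from Cacnb3 down to Kcnh2 the ranges of neighbours over the 4 libraries overlapped. The first 7 genes held 49.7% of the summed level of all channel genes, and the first 10 held 60.0%. At the other end, 18 genes had between 1 and 10 reads in all 4 libraries together, and 6 had none: Cacng3, Kcna10, Kcne3, Kcnj1, Kcnj13 and Kcnk9.

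**Figure D1:**
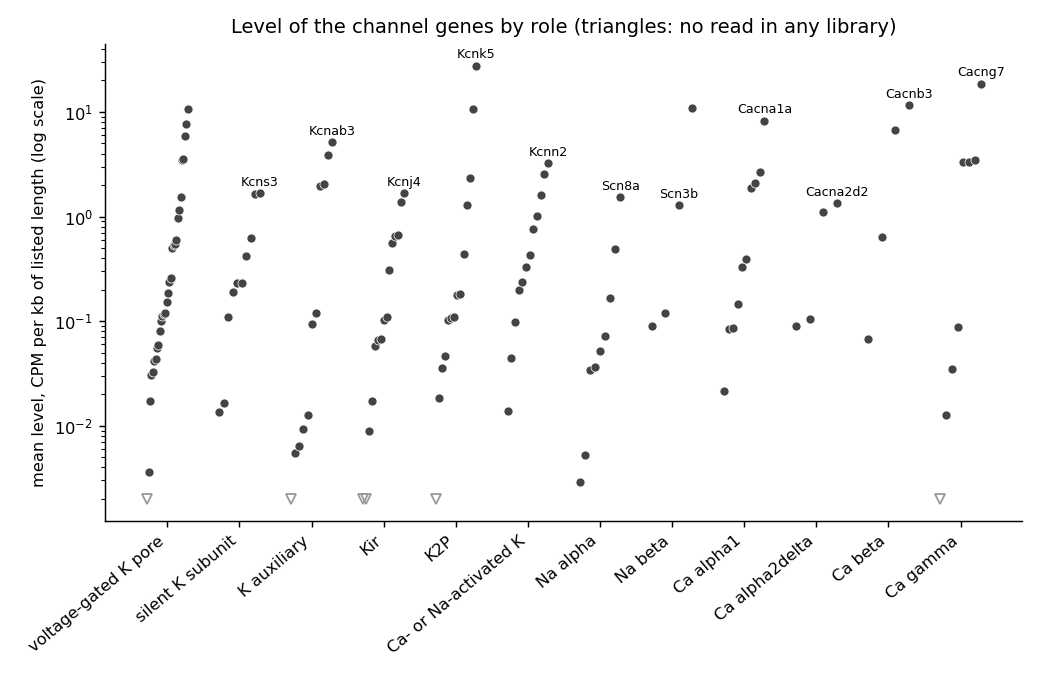
Mean level of each of the 131 channel genes over the 4 libraries, in CPM per kb of listed length on a log scale, grouped by role, with selected high genes named. Kcnk5 at 27.7 and Cacng7 at 18.7 stand above the rest, and triangles mark the 6 genes without a read.

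Of the 125 channel genes with at least 1 read, 2 fell with dox by edgeR's quasi-likelihood test at an adjusted p-value under 0.01, Kcnj3 and Kcnk1, and 0 rose. Over all 20044 genes tested, 0.519% were called lower and 0.0798% higher. DESeq2's Wald test called the same 2 and Cacna1h lower among 60 channel genes it tested and 0 higher, where it called 1.86% of all genes lower and 0.853% higher. At an unadjusted p-value under 0.05 by edgeR, 12 of the 125 channel genes were lower and 6 higher, where 9.31% of all genes were lower and 8.48% higher, so the share that was lower lay near that of all genes. With a library left out, 1 group holds 1 library, and the number of calls over all genes changed greatly. Only log2 fold changes are therefore given here. Without +dox replicate 1 they were -2.16 for Kcnj3, -0.972 for Kcnk1 and -1.38 for Cacna1h. Without +dox replicate 2 they were -1.59, -0.897 and -0.913. Without −dox replicate 1 they were -1.795, -0.859 and -1.14. Without −dox replicate 2, Kcnj3 had -1.89 and Cacna1h -1.12, and Kcnk1 stayed negative. The calls of Kcnj3 and Kcnk1 were lost with either −dox library left out. They were also lost when edgeR filtered low counts with filterByExpr (adjusted p-values 0.0363 and 0.0307) or adjusted its deviances for small counts (0.0801 and 0.0749).

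Kcnj3 encodes a subunit of the inward rectifiers that G proteins open, the channels through which acetylcholine slows the heart. It lies at chr2:55288381-55450556 (+ strand, mm9) and had 41 and 28 reads with dox and 173 and 133 without. That is 1.82 and 1.23 CPM with dox and 5.66 and 5.30 CPM without. Both +dox libraries were low, and the groups lay far apart for a gene of this level. The means were 1.52 ± 0.421 CPM (+dox, SD, n = 2) and 5.48 ± 0.257 CPM (−dox, SD, n = 2), and the log2 fold change was -1.85 ± 0.29 (SE, edgeR adjusted p-value 0.00577, DESeq2 9.11e-04). Of the 61 channel genes above 1 CPM, Kcnj3 alone was more than 2-fold lower in both replicates. An antisense gene, Gm17595, covers 31.1% of its exon bases, and since the use of the read strand in the counting is not stated, reads of the pair cannot be told apart.

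Kcnk1, a weakly conducting background potassium channel of the K2P family, lies at chr8:128519002-128554585 (+ strand). It had 17.2 and 16.4 CPM with dox and 33.7 and 30.5 CPM without. The replicates sat close together on each side of a wide gap. Its log2 fold change was -0.93 ± 0.15 (SE, edgeR adjusted p-value 0.00664, DESeq2 1.66e-05), and the mean without dox was 1.91 times that with dox.

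Cacna1h, the pore of a T-type calcium channel, which opens at small depolarisations, lies at chr17:25511232-25570728 (− strand). It had 11.2 and 8.10 CPM with dox and 20.9 and 21.2 CPM without. The −dox libraries were nearly alike and the +dox libraries less so, yet the groups stayed apart. Its log2 fold change was -1.13 ± 0.19 (SE), and the adjusted p-value was 0.0109 with edgeR, just above the threshold, and 1.07e-04 with DESeq2. Tpsg1 on the opposite strand shares 1.59% of its exon bases.

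**Figure D2:**
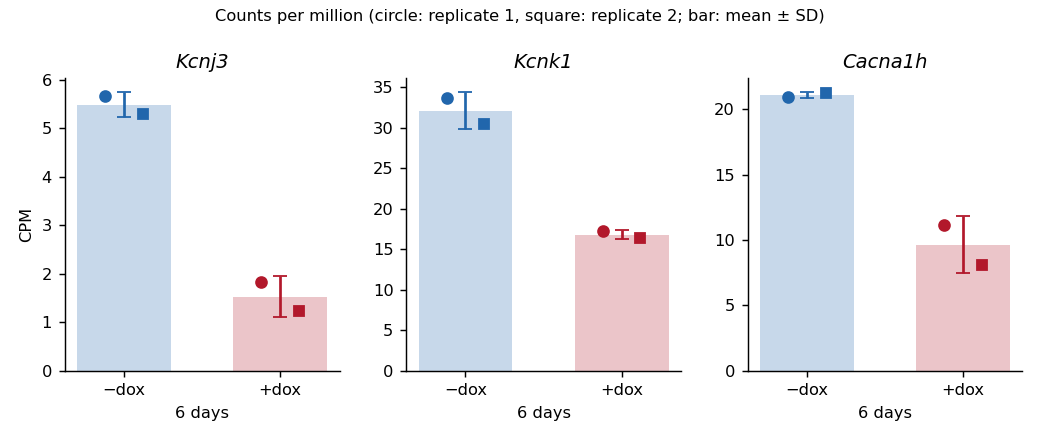
CPM of Kcnj3, Kcnk1 and Cacna1h in each library after 6 days without (blue) or with (red) dox, with the mean as a bar from 0 and the SD of 2 libraries as error bar. In each gene both +dox libraries lie below both −dox libraries, for example at 1.82 and 1.23 against 5.66 and 5.30 CPM in Kcnj3.

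Across the 61 channel genes at 1 CPM or more, the median log2 fold change was -0.15, and over all 13911 genes at that level it was -0.00. The median was -0.21 in replicate 1 and -0.06 in replicate 2. Both +dox libraries were below both −dox libraries in 25 of the 61, or 41.0%, where 27.7% of all genes at this level were, and above in 12 of the 61, or 19.7%, where 26.1% of all genes were. The sign of the change was negative in both replicates in 31 channel genes and positive in both in 17, and in 13 the replicates had opposite signs. As shares these are 50.8% lower and 27.9% higher in both, beside 35.7% and 34.0% of all genes. With 1 library against 1 in each replicate, most of these differences are small, and all but the 3 genes above missed the threshold with both tests.

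**Figure D3:**
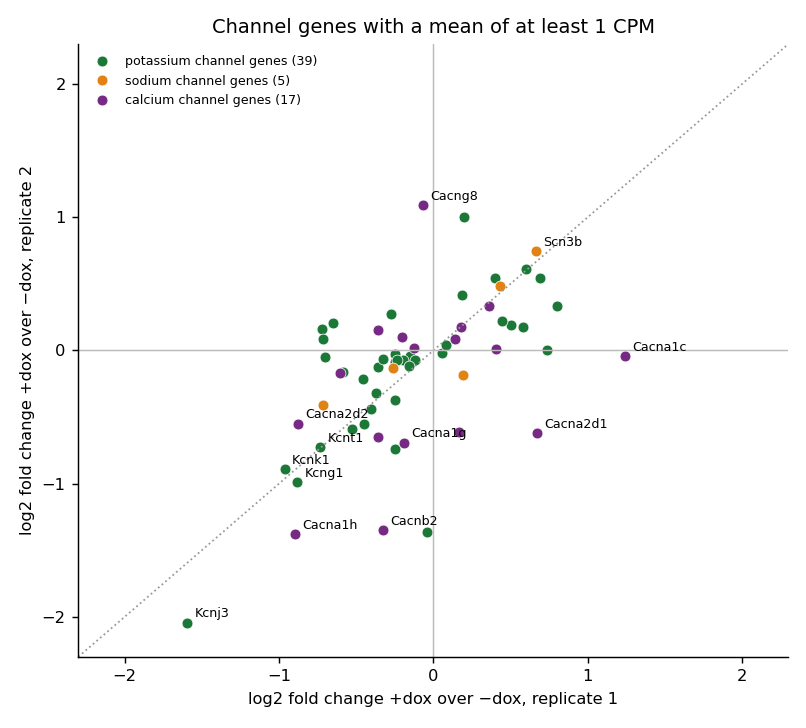
Log2 fold change of +dox over −dox (prior count of 2) in replicate 1, across, and replicate 2, up, of the 61 channel genes at 1 CPM or more, coloured by ion, with equality dotted. Kcnj3 lies alone at the lower left, at -1.60 and -2.04, while Cacna1c and Cacng8 lie far from 0 in 1 replicate and near it in the other, and Cacna2d1 has opposite signs.

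Among the inward rectifiers, 5 of 15 reached 1 CPM. Beside Kcnj3, the strong inward rectifier Kcnj12 had 4.71 and 5.30 CPM with dox and 6.45 and 7.81 CPM without, a log2 fold change of -0.51 (edgeR adjusted p-value 0.267). Its groups did not overlap, but it missed the threshold. Kcnj4, of the same subfamily and the highest of the group per length, had 4.09 and 3.28 CPM with dox against 3.86 and 3.19 CPM without, so its groups overlapped. The other subunits that can join Kcnj3 are named here after their values were seen. Kcnj6 had 1 and 0 reads with dox and 1 in each library without. Kcnj5 had 0 reads in both +dox libraries and 1 and 7 reads without dox. Kcnj9 had 2.00 and 2.72 CPM with dox and 1.31 and 2.39 CPM without, and its groups overlapped.

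In the K2P group, Kcnk5 had 88.1 and 89.2 CPM with dox and 101 and 93.5 CPM without. The groups of the most highly expressed channel gene lay close together without overlap, with a log2 fold change of -0.13 (edgeR adjusted p-value 0.550). The alkaline-activated Kcnk16, named after its values were seen, had no reads with dox and 6 and 4 reads without, too few to be called (edgeR adjusted p-value 0.193).

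The voltage-gated potassium pores were the largest group, with 14 of 30 at 1 CPM or more and a median log2 fold change of -0.12. Of the 14, 6 (42.9%) lay below and 5 (35.7%) above the −dox libraries without overlap. Of all genes at this level, 27.7% lay below and 26.1% above. Kcnh2, whose product repolarises the heart muscle cell, had 30.2 and 32.2 CPM with dox and 32.9 and 33.9 CPM without. Its relative Kcnh6 had 9.02 and 7.05 CPM with dox and 13.0 and 10.6 CPM without, a log2 fold change of -0.56 (edgeR adjusted p-value 0.178). Both were lower with dox in each replicate, and neither passed.

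Silent subunits form no channel alone and alter the pores they join. Of 10, 5 reached 1 CPM, with a median log2 fold change of 0.04 and none passing. Without overlap, 2 lay below and 2 above the −dox libraries, where 27.7% and 26.1% of all genes at this level did. Kcng1 had 2.22 and 2.89 CPM with dox and 4.16 and 5.82 CPM without, a log2 fold change of -0.96 ± 0.28 (SE, edgeR adjusted p-value 0.0905). Among the 61 genes its value was the most negative after Kcnj3 and Cacna1h, in a gene of few reads. Kcns3 had 4.31 and 3.77 CPM with dox and 5.14 and 6.34 CPM without, a log2 fold change of -0.50 (edgeR adjusted p-value 0.303). On the other side, named after their values were seen, Kcns1 had 2.22 and 1.88 CPM with dox and 1.24 and 1.47 CPM without, and Kcnf1 2.44 and 2.10 CPM with dox and 1.70 and 1.83 CPM without. The accessory subunits at 1 CPM or more, 4 of 11, all had negative log2 fold changes, from -0.35 to -0.26, and none passed. Kcnab3, a cytoplasmic beta subunit, had 9.19 and 13.4 CPM with dox and 15.0 and 13.9 CPM without. Kcnip3, a calcium-binding partner of the Kcnd pores, had 10.7 and 9.94 CPM with dox and 13.7 and 10.8 CPM without.

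Of the channels opened by internal calcium or sodium, 7 of 12 reached 1 CPM, and 6 of the 7 had a negative log2 fold change. Kcnt1, a sodium-activated pore, had 2.00 and 1.75 CPM with dox and 3.37 and 2.95 CPM without, a log2 fold change of -0.75 (edgeR adjusted p-value 0.179). The small-conductance channels Kcnn1 and Kcnn2, which follow slow calcium signals, were higher in level. Kcnn1 had 8.44 and 9.59 CPM with dox and 11.6 and 11.2 CPM without. Kcnn2 had 12.6 and 10.1 CPM with dox and 14.1 and 11.0 CPM without, so its groups overlapped.

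**Figure D4:**
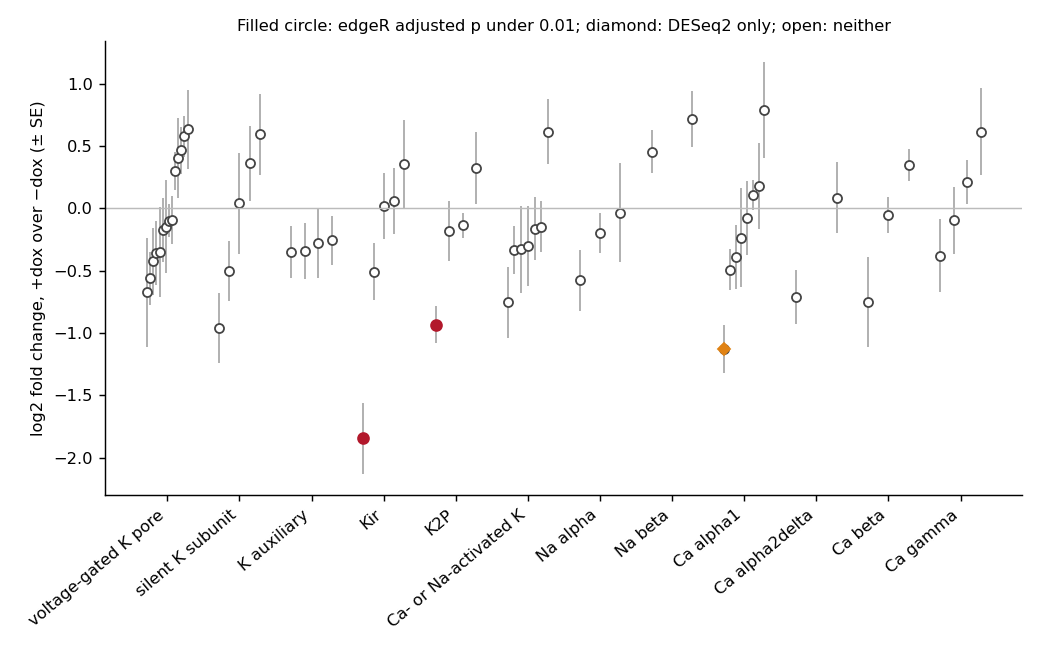
Fitted log2 fold change of +dox over −dox with its standard error for the 61 channel genes at 1 CPM or more, by role. Kcnj3 at -1.85 and Kcnk1 at -0.93 are filled in red, Cacna1h at -1.13 is a diamond, and the others, which passed neither test, are open.

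No sodium channel gene passed. Of the 13, 5 reached 1 CPM. Scn8a, a main pore of neurons, had 15.9 and 16.4 CPM with dox and 19.2 and 18.0 CPM without. The beta subunits are single-span proteins that also act in cell adhesion. Scn3b had 6.44 and 7.01 CPM with dox and 4.03 and 4.14 CPM without, a log2 fold change of 0.72 with both +dox libraries above (edgeR adjusted p-value 0.112), and another transcript of Scn3b is listed for each replicate.

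The calcium pores differed among themselves. Cacna1a, the highest, had 63.1 and 70.5 CPM with dox and 57.4 and 66.6 CPM without, and its groups overlapped. For Cacna1a, and for Cacna1c below, another transcript is listed for each replicate. The N-type pore Cacna1b, which like Cacna1a serves transmitter release, had 24.9 and 18.5 CPM with dox and 32.0 and 29.1 CPM without. Its groups did not overlap, and the log2 fold change of -0.49 missed the threshold (edgeR adjusted p-value 0.136). The other T-type pores and the L-type pore Cacna1c are given beside Cacna1h after their values were seen. Cacna1g had 19.5 and 10.4 CPM with dox and 22.3 and 16.9 CPM without, and Cacna1i 1.64 and 1.36 CPM with dox and 1.44 and 1.20 CPM without. In both genes the groups overlapped. The log2 fold change of Cacna1g was -0.39, and without +dox replicate 1 it was -0.91. Cacna1c, the L-type pore of heart and smooth muscle, had 8.48 and 2.98 CPM with dox and 3.54 and 3.07 CPM without. Its 1 high value was in +dox replicate 1, the library in which the fibroblast markers were also highest, and the part of those cells in it was not tested.

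**Figure D5:**
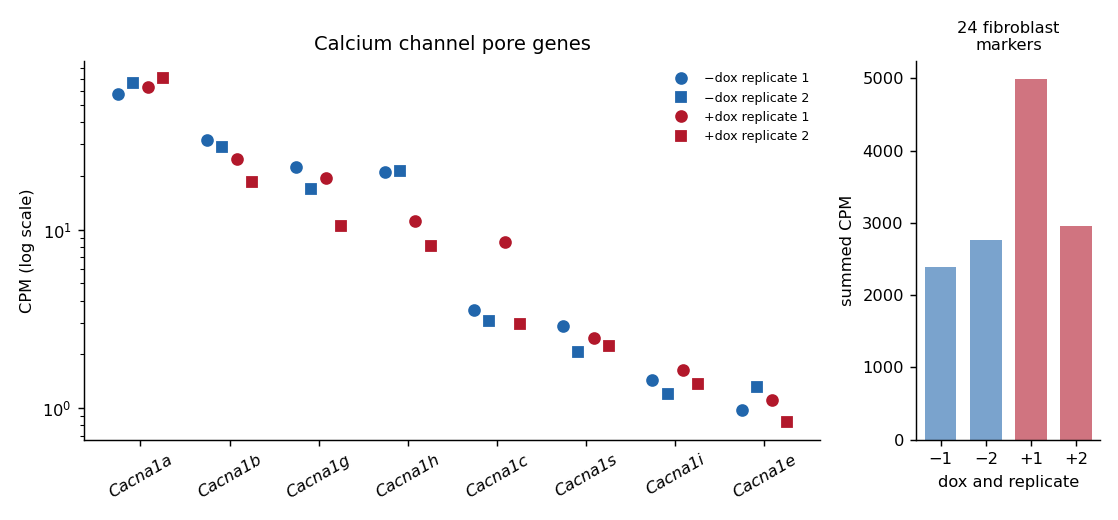
Left, CPM on a log scale of the 8 calcium pore genes at 1 CPM or more in each library (circle, replicate 1, square, replicate 2, blue without and red with dox). Right, summed CPM of the 24 fibroblast markers in the same libraries, highest at 4994 in +dox replicate 1, where Cacna1c is also highest at 8.48 CPM.

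No accessory subunit of the calcium channels passed. Cacna2d2, an alpha2delta subunit that carries pores to the surface, had 5.02 and 6.26 CPM with dox and 9.30 and 9.21 CPM without, a log2 fold change of -0.71 (edgeR adjusted p-value 0.100). Its relative Cacna2d1 had 11.1 and 5.82 CPM with dox and 6.91 and 9.01 CPM without, with opposite signs in the replicates. Among beta subunits, Cacnb3 had 36.5 and 36.2 CPM with dox and 28.4 and 28.8 CPM without. The replicates of Cacnb3 were nearly equal on both sides, yet its log2 fold change of 0.35 missed the threshold (edgeR adjusted p-value 0.176). Cacnb1, the beta subunit of skeletal muscle, had 22.6 and 23.8 CPM with dox and 24.7 and 23.5 CPM without. Of the gamma subunits, Cacng7 had 17.8 and 15.2 CPM with dox against 13.4 and 15.0 CPM without, and Cacng4 had 2.84 and 3.72 CPM against 3.67 and 3.35 CPM. Neither passed, and Cacng4 overlapped.

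Genes that work beside the channels were counted in the same way. Of 71 other ion transport genes (pumps, exchangers, intracellular calcium channels and other cation channels), edgeR called 3 lower and 0 higher. Over all genes tested, it called 0.519% lower and 0.0798% higher. At an unadjusted p-value under 0.05 by edgeR, 15 were lower and 4 higher (9.31% and 8.48% of all genes). DESeq2 called 4 lower and 0 higher among 58 it tested, where it called 1.86% and 0.853% of all genes. The 59 at 1 CPM or more had a median log2 fold change of -0.13. Itpr1, the calcium release channel opened by inositol trisphosphate, had 82.8 and 74.1 CPM with dox and 128 and 125 CPM without, a log2 fold change of -0.69 (edgeR adjusted p-value 0.00477). Piezo2, a channel opened by touch and stretch, had 2.62 and 1.14 CPM with dox and 7.86 and 9.33 CPM without, a log2 fold change of -2.19 (edgeR adjusted p-value 0.00520). In both genes the groups were well separated. Atp1b1, a beta subunit of the sodium pump, had a log2 fold change of -0.25 (edgeR adjusted p-value 0.215). Among 33 tested partners and regulators of channels, edgeR called 0. At an unadjusted p-value under 0.05, 6 were lower and 2 higher (9.31% and 8.48% of all genes). DESeq2 called 1 of 24 lower, Cachd1, a relative of the alpha2delta subunits (32.3 and 28.4 CPM with dox, 45.8 and 44.5 CPM without).

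Markers of cells that could share the culture moved as follows, and their part in the channel results was not tested. Of 16 primitive streak and endoderm markers, edgeR called 8 lower, where it called 0.519% of all genes lower. Their summed level was 59.6 and 54.2 CPM with dox and 189 and 225 CPM without. Of the 24 fibroblast markers it called 2 higher, Mgp and Spp1, where 0.0798% of all genes were called higher. At an unadjusted p-value under 0.05 by edgeR, 20 of the 24 were higher and 0 lower (8.48% and 9.31% of all genes). Of the 23 at 1 CPM or more, 16 were above both −dox libraries in both +dox libraries, where 26.1% of all genes were. Of the 14 neuron markers edgeR called 0, with 3 higher and 3 lower at an unadjusted p-value under 0.05, and DESeq2 called 0. Their sum was 623 and 673 CPM with dox and 583 and 531 CPM without. Of the 12 smooth and cardiac muscle markers edgeR called 1 lower, the heart actin gene Actc1. Their sum was 312 and 203 CPM with dox and 216 and 225 CPM without. Acta2 and Tagln are in both the muscle and the fibroblast list, so the sums of these lists are not independent. Every marker of these 4 lists had reads in at least 1 library.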

How the data were processed

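RNA was sequenced in 2 +dox and 2 −dox cultures, and the replicate numbers are those of the labels. The authors ran cutadapt, TopHat2 (mm9), removal of PCR duplicates and HOMER, which tabulated unique exonic reads per gene, and deposited raw counts in a table per replicate. Tool versions and strand use are not given in the sources used here. The tables were joined by symbol. Another transcript is listed for the other replicate in 8 of the channel genes (among them Scn3b, Cacna1a, Cacna1c and Kcnj6) and 547 of all genes. ChIP-seq and Hi-C data were not used here.

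Genes with 1 count or more in any library were tested in edgeR 4.0.16 (R 4.3.3, TMM, quasi-likelihood test with defaults, no block, two-sided, Benjamini-Hochberg over all genes tested, threshold 0.01). DESeq2 1.42.0, the tool in the study's methods, was the alternative. CPM are counts scaled by TMM, and levels per kb use the lengths listed in the tables. The SE of a log2 fold change was derived from edgeR's test, as the absolute change divided by the square root of the F statistic. Within 1 replicate, log2 fold changes were computed with 2 as prior count. Medians and counts without overlap are over genes averaging 1 CPM or more. The floor of 3 reads covers counting error only. Replicates of a condition differed by more than counting noise (chi-square per degree of freedom of 19.2 with dox and 13.2 without).

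The channel genes, the lists and the rule for named genes were chosen with earlier results of these data known. Named are channel genes called by either test, the 12 with the lowest edgeR p-value, the 2 highest per length in each role group (all averaging 1 CPM or more), list genes called by edgeR, and Atp1b1. A few genes that the rule names are not reported here. Alternatives were other tests, a replicate block, other scalings and filters, a threshold of 0.05, a mean of 10 CPM, genes whose transcript is the same in both, and leaving out each library. For the medians of single replicates, the other scalings were added after seeing the data. Exons and windows came from the NCBIM37 genome and its GENCODE annotation, in which 16 of the 131 channel genes share exon bases with another gene.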

Additional observations from a re-analysis of the deposited data

How the results depend on the processing

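Without the block, edgeR called 120 genes in all, against 375 with DESeq2, 457 with the likelihood ratio test, 573 at a threshold of 0.05, 11 with filterByExpr and 0 with deviances adjusted for small counts. Of the channel genes called lower, 0 were left with filterByExpr, where the adjusted p-values of Kcnj3, Kcnk1 and Cacna1h from edgeR were 0.0363, 0.0307 and 0.0487, and 0 with adjusted deviances, where they were 0.0801, 0.0749 and 0.100. Leaving out each library gave from 0 to 6 channel genes called lower and from 0 to 1 higher, from 0 to 6 other ion transport genes called lower and from 0 to 1 higher, and from 0 to 4 channel partners called lower. Other ion transport genes called lower also went to 0 with filterByExpr and with adjusted deviances, and 1 was called higher at a threshold of 0.05. Channel partners called lower numbered 1 with DESeq2 and with the likelihood ratio test and 2 at a threshold of 0.05. Leaving out −dox replicate 1 or 2 gave 0 calls by edgeR over all genes (1753 or 1450 at an unadjusted p-value under 0.05, and 3254 with adjusted deviances), and leaving out +dox replicate 1 or 2 gave 992 or 877. The cause was not tested.

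The replicate numbers pair only 2 libraries with 2, the labels name no shared batch, and the correlation of the deviations of same-numbered libraries was 0.196 across 13911 genes. With the number as a block, edgeR called 786 genes, among them 3 channel genes lower (Kcnj3, Kcnk1 and Cacna1h, adjusted p-values 7.14e-05, 2.10e-04 and 2.01e-04), 1 other ion transport gene higher and 2 channel partners lower.

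The median log2 fold change of the channel genes stayed negative under each alternative, and was -0.08 without −dox replicate 1 and -0.21 without +dox replicate 2, the ends of its range. That of the other ion transport genes was -0.17 with total counts and from -0.18 to -0.12 with a library left out. Total counts moved the median of all genes to -0.04. Of 427 comparisons of 33 named genes with 13 alternatives, 389 kept direction and side of the threshold, 11 newly passed, 20 no longer passed and 7 changed sign, none of them called. With a library left out, Cacna2d1 ran from -0.45 (without +dox replicate 1) to 0.48, Cacng4 from -0.30 to 0.083 (without +dox replicate 1), Kcnn2 from -0.32 to 0.050 (without −dox replicate 1), and Kcnj4 from -0.11 (without +dox replicate 1) to 0.21. Depth limits the genes under 1 CPM, 64 of the 125 with reads, for which a difference was not detectable at this depth unless large.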

Other observations

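Below 1 CPM, 64 channel genes had reads in at least 1 library, and edgeR called none of them. The following were named after their values and p-values were seen. Unadjusted p-values from edgeR were 0.0423 for Scn2b, 0.0592 for Kcnmb4 and 0.0622 for Cacng5, and the adjusted ones 0.257, 0.306 and 0.314. Scn2b, a sodium channel beta subunit, had 8 and 7 reads with dox and 23 and 19 without. Kcnmb4, a beta subunit of the large calcium-activated potassium channel in the brain, had 12 and 11 reads with dox and 42 and 17 without, and antisense genes share 23.4% of its exon bases. Cacng5, a gamma subunit, had 7 and 3 reads with dox and 1 in each library without.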
